A study of Arabidopsis thaliana with 12 samples.

Results

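The GASA genes encode small secreted peptides rich in cysteine, a plant family named for its relation to a gibberellin-stimulated transcript of tomato. The 10 members described here, chosen by locus identifier, were GASA1 (AT1G75750), GASA2 (AT4G09610), GASA3 (AT4G09600), GASA4 (AT5G15230), GASA5 (AT3G02885), GASA6 (AT1G74670), GASA7 (AT2G14900), GASA9 (AT1G22690), GASA10 (AT5G59845) and GASA14 (AT5G14920), out of 33602 genes in the files and out of 15 GASA genes. Their transcripts were read by RNA sequencing after poly-A selection, in developing seeds of Arabidopsis thaliana taken 9 days after pollination from plants kept at 22 °C with 16 h light and 8 h dark. The groups were dellaq seeds, lec1-4 seeds and wild-type Col-0 seeds, which came as a Col-0-1 and a Col-0-2 set, with 3 libraries in each of the 4 groups. The labels do not say which DELLA genes dellaq lacks, the strain it was made in, which wild-type set was grown with which mutant, or that replicates were separate plants, so the p-values speak of the spread among these libraries, part or all of which may be technical.

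Gibberellins act by removing DELLA proteins, nuclear repressors of the hormone's responses, after the hormone binds a GID1 receptor and an F-box protein such as SLY1 marks the DELLA for destruction. Several GASA genes are known as targets of this pathway, some raised and some lowered by gibberellin, and members have been linked to cell elongation, flowering, germination and seed size. LEC1 is a subunit of nuclear factor Y, a complex that recognises CCAAT boxes, and promotes embryo maturation.

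Promoter sequence is shown for the 3 members that were higher in dellaq seeds than in both wild-type sets, or were found only in dellaq libraries. Each run is the 250 bases before the annotated gene start in the TAIR10.1 assembly of RefSeq, matched by locus identifier, 5′ to 3′ on the gene's strand; the authors' own build is not given in the sources used here. Capitals mark, on either strand, CATGCA (the RY element, read by B3-domain seed regulators such as ABI3, FUS3 and LEC2), ACGTG (the core read by many bZIP factors, of which CACGTG is the longer G-box form), CCAAT, and TAACAAA, the core of a gibberellin response element known from cereals.
GASA2 (chr4:6075646-6075895, minus strand): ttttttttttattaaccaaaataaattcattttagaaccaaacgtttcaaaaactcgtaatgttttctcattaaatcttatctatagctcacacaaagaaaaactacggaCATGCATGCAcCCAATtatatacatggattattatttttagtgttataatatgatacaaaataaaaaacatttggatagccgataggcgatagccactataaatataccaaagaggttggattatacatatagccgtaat
GASA3 (chr4:6073647-6073896, minus strand): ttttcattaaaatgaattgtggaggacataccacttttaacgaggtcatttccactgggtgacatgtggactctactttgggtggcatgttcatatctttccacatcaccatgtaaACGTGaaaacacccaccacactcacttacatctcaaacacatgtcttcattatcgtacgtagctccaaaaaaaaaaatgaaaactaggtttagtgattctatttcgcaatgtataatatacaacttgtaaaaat
GASA4 (chr5:4944566-4944815, plus strand): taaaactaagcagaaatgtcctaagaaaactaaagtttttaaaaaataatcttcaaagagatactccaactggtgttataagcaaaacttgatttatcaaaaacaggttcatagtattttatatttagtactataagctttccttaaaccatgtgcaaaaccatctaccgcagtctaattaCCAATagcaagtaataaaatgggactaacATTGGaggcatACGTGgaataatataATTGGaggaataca
The GASA2 run held 3 overlapping RY matches, which appear as a single run of capitals beginning 140 bases before the gene start, and a CCAAT 129 bases before it. The GASA3 run, from the gene next to GASA2, held an ACGTG beginning 134 bases before the start and no RY or CCAAT match. The GASA4 run held CCAAT 3 times within 69 bases of the start, and ACGTG 29 bases before it. Among 27438 promoters of the same length, 8.43% held CATGCA, 22.9% held ACGTG, 46.0% held CCAAT, 16.1% held TAACAAA and 6.49% held CACGTG. Of the 10 members, CATGCA was found in GASA2 and GASA9, ACGTG in GASA3, GASA4, GASA5 and GASA9, CCAAT in GASA2, GASA4, GASA5, GASA9 and GASA10, TAACAAA in GASA9, and CACGTG in none. These matches describe letters in the windows and are not evidence of binding.

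Most members are short genes of like build. The coding sequence ran from 270 bases in GASA10 to 360 in GASA9, except in GASA14, which has 828 bases (275 codons). GASA2 and GASA3 were the closest pair, with 258 of 300 aligned coding bases identical (86.0%). The next pair, GASA4 and GASA6, matched over 66.0% of the longer sequence. No pair of members shared a window of 50 identical bases. The GASA6 locus overlaps a gene on the other strand, AT1G74675, by 206 bases, and GASA9 overlaps AT1G22700 by 11 bases. The library kit does not mark strand, so reads from those overlaps cannot be assigned to a strand.

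Levels are FPKM (fragments scaled to transcript length and library size), deposited by the authors, given as mean ± SD with n = 3 libraries. Depth, inferred from the size of FPKM steps among low genes, was 13.7 M to 19.4 M fragments per library. LEC1, checked first, was at 2.63, 2.38 and 3.42 FPKM in the lec1-4 libraries, against 80.5 ± 12.9 FPKM in Col-0-1 and 124 ± 1.02 FPKM in Col-0-2. Of the 5 DELLA genes, RGL1, RGL2 and RGA were lower in dellaq than in both wild-type sets, and GAI and RGL3 passed neither test. RGL1 averaged 1.39 FPKM in dellaq, against 14.4 FPKM in Col-0-1 and 9.28 FPKM in Col-0-2. RGL2 averaged 4.66 FPKM in dellaq, against 25.5 and 16.9. RGA fell less, to 20.8 FPKM in dellaq, against 28.2 and 25.6. Seeds hold embryo, endosperm and seed coat, and in such bulk samples fewer cells of a type and less RNA per cell cannot be told apart. Summed levels of 11 maturing embryo markers were 12302 to 21366 FPKM in dellaq, 355 to 510 in lec1-4, 1678 to 3402 in Col-0-1 and 614 to 732 in Col-0-2. Summed levels of 8 seed coat markers were 425 to 506 FPKM in dellaq, 1448 to 1596 in lec1-4, 1111 to 1335 in Col-0-1 and 1461 to 1653 in Col-0-2. Summed levels of 8 endosperm markers were 2761 to 3027 FPKM in dellaq, 630 to 788 in lec1-4, 1297 to 1718 in Col-0-1 and 509 to 600 in Col-0-2. EPR1 made up most of that sum, with a mean of 2867 FPKM in dellaq, and was the only marker of the list higher in dellaq against both sets, where 4 of the 8 (ZOU, ALE1, FIS2 and FWA) were lower. Of the embryo markers 7 were higher and 1 lower in dellaq against both sets, and of the seed coat markers 8 were lower. Of all genes tested, 9.78% were higher and 28.4% lower in dellaq against both sets. In lec1-4 against both sets, 1 embryo marker (LEC2) was higher and 5 (LEC1, ABI3, OLEO1, SESA1 and L1L) were lower. LEC1, also part of the embryo sum, is named by the genotype, so its call does not speak of the tissue. In lec1-4 against both sets, 1 seed coat marker (TTG2) and 1 endosperm marker (FWA) were higher and 0 lower, beside 8.19% higher and 4.01% lower of all genes. Summed levels of 6 silique wall markers were 105 to 127 FPKM in dellaq, 187 to 211 in lec1-4, 183 to 191 in Col-0-1 and 143 to 154 in Col-0-2. Against both sets 3 of the 6 (SHP2, FUL and ALC) were lower in dellaq and 0 higher, beside the shares of all genes given above. In lec1-4 0 were higher and 0 lower against both sets. No marker of the 4 lists was at 0 in a whole group. Plastid-encoded transcripts summed to 7116 to 8593 FPKM in dellaq and 127 to 186 in lec1-4, against 172 to 251 FPKM in Col-0-1 and 4523 to 5039 FPKM in Col-0-2. The part of these differences in the GASA results below was not tested.

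GASA10 dominated the family. It stood at 1026, 829 and 854 FPKM in the dellaq libraries and at 955, 917 and 786 FPKM in the lec1-4 libraries, against 816, 849 and 750 FPKM in Col-0-1 and 1540, 1544 and 1480 FPKM in Col-0-2. The 3 Col-0-2 libraries lay above the other 9, whose ranges overlapped. Over the 12 libraries GASA10 made up 72.8% of the summed FPKM of the members, and its mean stood at percentile 99.9 of all genes. The Col-0-2 libraries, with the largest sums, weigh most in that share, and by library GASA10 held 76.7% to 83.8% in dellaq and 70.7% to 73.9% in lec1-4, against 73.4% to 75.1% in Col-0-1 and 67.7% to 69.6% in Col-0-2. GASA1 held 7.20% to 10.8% in dellaq and 7.05% to 7.29% in lec1-4, against 9.62% to 11.3% in Col-0-1 and 17.001% to 19.8% in Col-0-2. GASA6 held 2.87% to 3.59% in dellaq and 5.11% to 5.52% in lec1-4, against 5.83% to 6.28% in Col-0-1 and 0.946% to 1.49% in Col-0-2. GASA4 held 2.66% to 3.89% in dellaq and 5.66% to 7.39% in lec1-4, against 1.91% to 2.23% in Col-0-1 and 1.21% to 1.44% in Col-0-2. The summed FPKM of the 10 members was 1080 to 1224 in dellaq and 1112 to 1292 in lec1-4, against 1022 to 1131 FPKM in Col-0-1 and 2143 to 2281 FPKM in Col-0-2.

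**Figure D1:**
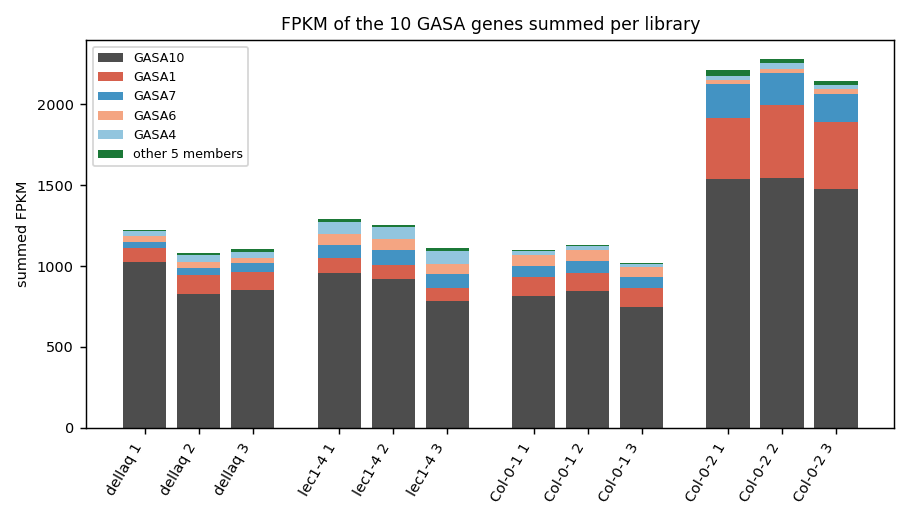
Summed FPKM of the 10 GASA genes in each library (vertical axis, from 0), 1 bar per library with the numbers 1 to 3 as replicate numbers, and colours for members. GASA10 fills most of each bar, and the 3 Col-0-2 bars, at 2143 to 2281 FPKM, are the tallest.

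The order of the members by level was shared only in part between the groups. GASA10 was highest in every group, GASA1 came next by mean in every group, and GASA7 followed by mean in every group, although in lec1-4 the ranges of GASA1 and GASA7 overlapped. GASA4 and GASA6 came next in an order that differed between groups: GASA4 stood above GASA6 in lec1-4 with no overlap and below it in Col-0-1 with no overlap, and their ranges overlapped in dellaq and in Col-0-2. Of 36 neighbouring pairs of genes in the 4 orders, 14 had overlapping ranges. For a single gene across the groups, 17 of 30 neighbouring pairs of groups overlapped, among them pairs of GASA2 and GASA5 groups at or near 0. Neither count was made over all genes, so neither sets the family apart.

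**Figure D2:**
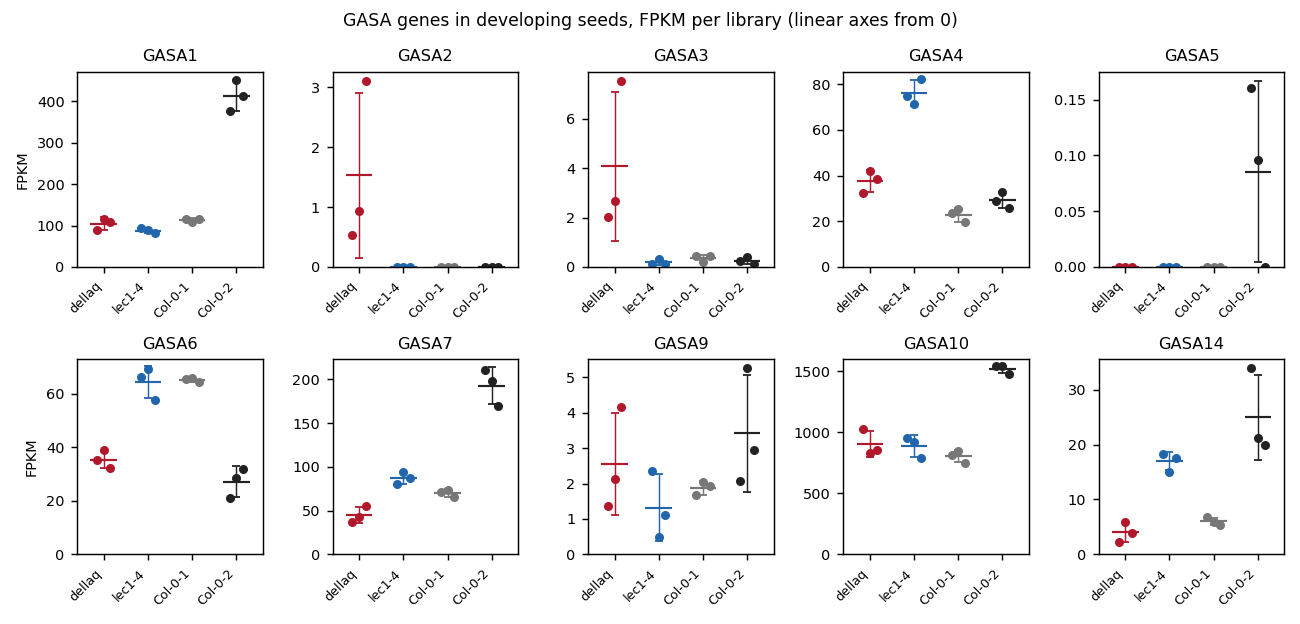
FPKM of each GASA gene in every library (points), with the group mean (horizontal line) and SD (error bar), n = 3 libraries per group, on linear axes that start at 0 and differ between panels. GASA2 and GASA3 stand out in dellaq, GASA4 is highest in lec1-4, and GASA1, GASA7 and GASA10 are highest in Col-0-2.

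Changes were tested with limma on log2(FPKM + 1) over 20222 genes, and a gene was called at an adjusted p (Benjamini-Hochberg) under 0.05. On that log2 scale, changes of weakly expressed genes come out too small. The filter, at least 1 FPKM in at least 3 libraries, let 8 of the 10 members through; GASA2 and GASA5 were left out. GASA3 passed it only through its 3 dellaq libraries, so its tests with dellaq were selected on the group where it is high: it is counted below as the fit calls it, and its p-values against dellaq are not given as support. In dellaq against Col-0-1, 2 members were called higher and 2 lower, with 19.4% of all genes tested called higher and 50.9% lower. In dellaq against Col-0-2, 3 were higher and 4 lower, beside 21.9% and 41.6% of all genes; without dellaq replicate 2, 1 was higher and 4 were lower. In lec1-4 against Col-0-1, 2 were higher and 1 lower, beside 15.8% and 10.7% (0 lower without lec1-4 replicate 3), and in lec1-4 against Col-0-2, 2 were higher and 4 lower, beside 42.7% and 23.3%. These counts are shares of 25% and 25%, 37.5% and 50%, 25% and 12.5%, and 25% and 50% of the 8 members, and with so few members they do not set the family apart from all genes tested.

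Calls in the same direction against both wild-type sets were fewer. In dellaq, GASA4 was higher and GASA7 was lower against both sets, and GASA3, which entered the test only through dellaq, was also called higher. Of all genes tested, 9.78% were higher and 28.4% lower. In lec1-4, GASA4 was higher and GASA1 was lower against both, where 8.19% of all genes were higher and 4.01% lower. GASA4 was the member that was called higher in both mutants against both sets. These comparisons share their wild-type libraries.

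**Figure D3:**
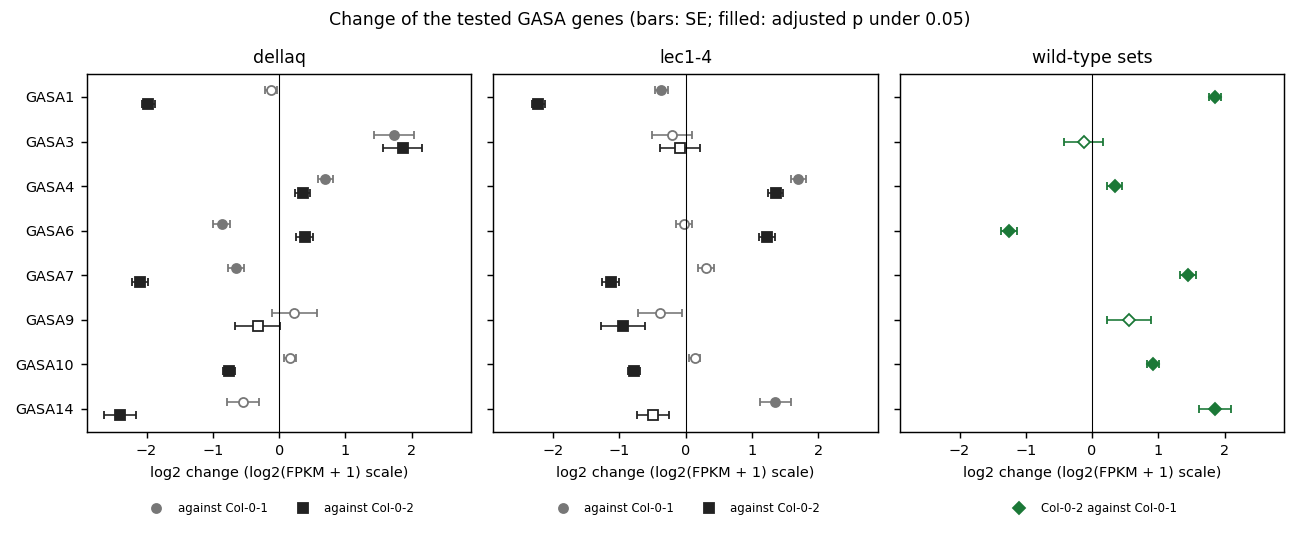
Log2 change with its SE (horizontal axis, log2(FPKM + 1) scale) of the 8 tested GASA genes in dellaq, in lec1-4 and between the wild-type sets; filled symbols have an adjusted p under 0.05 by limma. The grey circles (against Col-0-1) and black squares (against Col-0-2) lie on the same side of 0 with both filled for GASA4 and GASA7 in dellaq, for GASA3 there, whose dellaq libraries alone brought it into the test, and for GASA1 and GASA4 in lec1-4.

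GASA4 is a gibberellin-induced member expressed in meristems and growing tissue and linked to seed size. Its levels were 32.5, 42.0 and 38.4 FPKM in the dellaq libraries and 75.02, 71.1 and 82.2 FPKM in the lec1-4 libraries, against 23.7, 25.2 and 19.5 FPKM in Col-0-1 and 28.7, 32.9 and 25.9 FPKM in Col-0-2. The lec1-4 libraries lay above the other 9, and the lowest dellaq library lay just under the highest of Col-0-2. In lec1-4 the log2 change was 1.70 against Col-0-1 (SE 0.11, adjusted p = 7.07e-07) and 1.36 against Col-0-2 (SE 0.11, adjusted p = 7.36e-07). In dellaq it was 0.70 against Col-0-1 (SE 0.11, adjusted p = 0.000149) and 0.36 against Col-0-2 (SE 0.11, adjusted p = 0.0159). The change against Col-0-2 was no longer called without dellaq replicate 2 (0.27, adjusted p = 0.0697) or without Col-0-2 replicate 3 (0.28, adjusted p = 0.0717). Set against lec1-4 itself, dellaq was lower, with a log2 change of -1.002 (SE 0.11, adjusted p = 5.73e-06).

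GASA3 and GASA2, tandem neighbours on chromosome 4 known for transcripts in siliques and dry seeds, were highest in dellaq. GASA3 reached 2.01, 2.67 and 7.51 FPKM in the dellaq libraries, against 0.113, 0.325 and 0.120 FPKM in lec1-4, 0.444, 0.221 and 0.445 FPKM in Col-0-1 and 0.255, 0.404 and 0.111 FPKM in Col-0-2. By the gene's own step between its values, these were 17, 26 and 75 fragments in the dellaq libraries and 1 to 4 in each of the other 9. That step was 1.056 times the one from the RefSeq exon length. All 3 dellaq libraries lay above all others, and replicate 3 was the highest. As a description, the log2 change in dellaq was 1.73 (SE 0.30) with Col-0-1 as the wild type and 1.86 (SE 0.30) with Col-0-2. GASA2 was at 0.542, 0.940 and 3.10 FPKM in the dellaq libraries, which corresponds to 4, 8 and 27 fragments, and is listed at 0 in the other 9 libraries, where 1 fragment at the median depth would be 0.127 FPKM. As for GASA3, dellaq replicate 3 was the highest. In lec1-4, GASA3 averaged 0.186 FPKM, against 0.370 FPKM in Col-0-1 and 0.257 FPKM in Col-0-2, and was not called against Col-0-1 (log2 change -0.21, adjusted p = 0.649) or Col-0-2 (-0.08, adjusted p = 0.823). Reads can cross between similar genes, and how the authors counted reads that match several genes is not given in the sources used here.

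GASA7 was the member called lower in dellaq against both sets. It stood at 36.9, 42.3 and 55.1 FPKM in the dellaq libraries, and at 80.9, 93.7 and 86.8 FPKM in lec1-4, against 71.2, 73.6 and 65.6 FPKM in Col-0-1 and 211, 198 and 170 FPKM in Col-0-2. All 3 dellaq libraries lay below the other 9. The log2 change in dellaq was -0.66 against Col-0-1 (SE 0.12, adjusted p = 0.000435) and -2.10 against Col-0-2 (SE 0.12, adjusted p = 3.34e-08), where the median over all genes was -0.22 and -0.12. In lec1-4 GASA7 was lower than in Col-0-2 (log2 change -1.13, SE 0.12, adjusted p = 5.99e-06), while against Col-0-1 the change was 0.31 (SE 0.12, adjusted p = 0.0844). That last change was called when dellaq replicate 1 (adjusted p = 0.0424) or dellaq replicate 3 (adjusted p = 0.0218), which enter only its estimate of spread, was left out. The change in dellaq against lec1-4 was -0.96 (SE 0.12, adjusted p = 1.53e-05).

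GASA1, one of the first Arabidopsis members described, differed widely between the wild-type sets. It was at 88.2, 117 and 110 FPKM in the dellaq libraries and at 94.1, 88.5 and 80.8 FPKM in lec1-4, against 117, 109 and 115 FPKM in Col-0-1 and 376, 452 and 413 FPKM in Col-0-2. The 3 Col-0-2 libraries stood far above the other 9, and the lec1-4 libraries lay below those of Col-0-1. In lec1-4 the log2 change was -0.37 against Col-0-1 (SE 0.10, adjusted p = 0.0141) and -2.22 against Col-0-2 (SE 0.10, adjusted p = 2.92e-09). The call against Col-0-1 was lost without lec1-4 replicate 3 (-0.31, adjusted p = 0.0581). In dellaq it was -1.98 against Col-0-2 (SE 0.10, adjusted p = 1.1e-08) and -0.12 against Col-0-1 (SE 0.10, adjusted p = 0.271), and the sign of that last change depended on the scaling: it was 0.13 after median-ratio scaling. With equal FPKM sums, or with a trend with gene length and GC content removed, GASA1 was called lower in dellaq against Col-0-1 as well.

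GASA6, which promotes germination and links gibberellin and abscisic acid signals, changed direction with the wild-type set. Its levels were 35.2, 38.8 and 32.2 FPKM in dellaq and 66.1, 69.3 and 57.8 FPKM in lec1-4, against 65.4, 65.9 and 64.2 FPKM in Col-0-1 and 20.9, 28.7 and 32.0 FPKM in Col-0-2. The dellaq libraries fell between the sets, without overlap with either. The log2 change in dellaq was -0.87 against Col-0-1 (SE 0.12, adjusted p = 5.08e-05) and 0.39 against Col-0-2 (SE 0.12, adjusted p = 0.0161). In lec1-4 it was -0.02 against Col-0-1 (SE 0.12, adjusted p = 0.917) and 1.23 against Col-0-2 (SE 0.12, adjusted p = 3.23e-06). The call in dellaq against Col-0-2 was lost without dellaq replicate 2 (0.32, adjusted p = 0.0637) or without Col-0-2 replicate 1 (0.21, adjusted p = 0.0522).

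GASA14, whose peptide carries a proline-rich part and which promotes leaf expansion, was lowest in dellaq by mean. It measured 2.31, 5.97 and 3.81 FPKM in the dellaq libraries and 18.2, 15.1 and 17.6 FPKM in lec1-4, against 6.74, 5.98 and 5.38 FPKM in Col-0-1 and 33.9, 21.1 and 19.97 FPKM in Col-0-2. The dellaq and Col-0-1 ranges overlapped, and the lec1-4 libraries lay between the wild-type sets. The log2 change in dellaq was -2.40 against Col-0-2 (SE 0.24, adjusted p = 2.76e-06) and -0.55 against Col-0-1 (SE 0.24, adjusted p = 0.0579), which passed without dellaq replicate 2 (-0.81, adjusted p = 0.00536) or without Col-0-2 replicate 1 (-0.55, adjusted p = 0.0341). The dellaq change against Col-0-1 was also called lower with a pseudocount of 0.1 and with equal FPKM sums. In lec1-4 the log2 change was 1.35 against Col-0-1 (SE 0.24, adjusted p = 0.00131) and -0.50 against Col-0-2 (SE 0.24, adjusted p = 0.0846). The value against Col-0-2 was called when dellaq replicate 1 (adjusted p = 0.0353) or dellaq replicate 2 (adjusted p = 0.0362) was left out.

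For GASA10, the change in dellaq was 0.16 against Col-0-1 (SE 0.09, adjusted p = 0.123) and -0.76 against Col-0-2 (SE 0.09, adjusted p = 1.12e-05). In lec1-4 it was 0.14 against Col-0-1 (SE 0.09, adjusted p = 0.291) and -0.78 against Col-0-2 (SE 0.09, adjusted p = 9.01e-06). The sign of the dellaq change against Col-0-1 also depended on the scaling, with 0.41 after median-ratio scaling (adjusted p = 0.0011) and -0.03 with equal FPKM sums (adjusted p = 0.781).

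GASA9 and GASA5 were low. GASA9 was at 1.37, 2.14 and 4.17 FPKM in dellaq and 2.35, 0.5004 and 1.11 FPKM in lec1-4, against 1.67, 2.05 and 1.93 FPKM in Col-0-1 and 2.06, 5.26 and 2.94 FPKM in Col-0-2. Neighbouring groups overlapped throughout. A lower level was called in lec1-4 against Col-0-2 (log2 change -0.94, SE 0.34, adjusted p = 0.0255), and the call was lost without lec1-4 replicate 2 (-0.67, adjusted p = 0.112), lec1-4 replicate 3 (-0.91, adjusted p = 0.0626) or Col-0-2 replicate 2 (-0.66, adjusted p = 0.115). GASA9 was not called in lec1-4 against Col-0-1 (adjusted p = 0.431) or in dellaq against Col-0-1 (adjusted p = 0.556) or Col-0-2 (adjusted p = 0.414). GASA5, linked to flowering and heat responses, is listed at 0 in the dellaq, lec1-4 and Col-0-1 libraries and was at 0.161, 0.0957 and 0 FPKM in Col-0-2. This corresponds to 2, 1 and 0 fragments by the gene's own step, 1.448 times the one from the RefSeq exon length. No difference for GASA5 was detectable at this depth.

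Between the wild-type sets, which the labels give as 1 genotype, 5 of the 8 tested members were called higher in Col-0-2 than in Col-0-1 (GASA1, GASA4, GASA7, GASA10 and GASA14) and 1 lower (GASA6), where 25.8% of all genes were higher and 40.1% lower. The log2 changes were 1.85 for GASA1 (SE 0.10, adjusted p = 1.16e-08), 1.85 for GASA14 (SE 0.24, adjusted p = 2.49e-05), 1.44 for GASA7 (SE 0.12, adjusted p = 7.35e-07) and 0.92 for GASA10 (SE 0.09, adjusted p = 2.17e-06). For GASA4 it was 0.34 (SE 0.11, adjusted p = 0.0183), and GASA4 was no longer called without Col-0-1 replicate 3 (0.24, adjusted p = 0.086) or Col-0-2 replicate 2 (0.26, adjusted p = 0.0822). For GASA6 it was -1.25 (SE 0.12, adjusted p = 2.58e-06). The members' median was 0.74, beside -0.10 over all genes tested. Change moved with gene length between the sets: among 5 length classes of like size, the shortest genes, 72 to 1101 bases of exon, had a median of 0.26 and the longest -0.25, and the tested members spanned 640 to 1996 bases. With the length and GC trend removed, an alternative added after seeing the data, the members' median was 0.38 and 4 members were called higher and 1 lower.

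**Figure D4:**
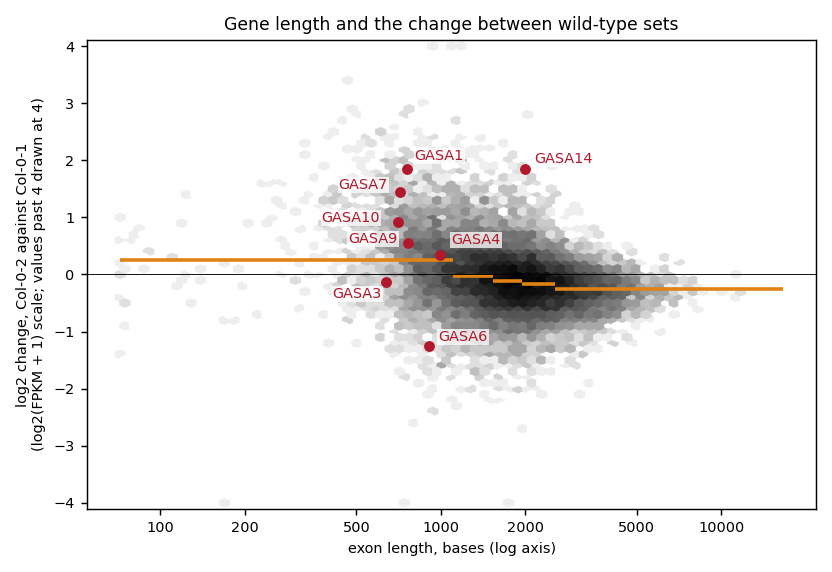
Log2 change in Col-0-2 against Col-0-1 (vertical axis, log2(FPKM + 1) scale) against exon length (log axis) for all tested genes (grey, darker where more genes lie); orange lines give the median of each of the 5 length classes, and red points the 8 tested GASA genes. GASA1, GASA7, GASA10 and GASA14 lie between 0.92 and 1.85, above the medians of 0.26 and -0.25 in the shortest and longest classes, and GASA6 lies at -1.25.

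Set directly against lec1-4, dellaq had 2 members higher (GASA1 and GASA3) and 4 lower (GASA4, GASA6, GASA7 and GASA14), where 20.2% of all genes were higher and 54.6% lower. GASA14 was at -1.90 (SE 0.24, adjusted p = 1.39e-05). GASA3, tested only because of its dellaq libraries, was at 1.94 (SE 0.30). GASA6 was at -0.85 (SE 0.12, adjusted p = 5.12e-05). GASA1 was at 0.25 (SE 0.10, adjusted p = 0.035), and its call was lost in 8 of 21 alternatives, among them those without dellaq replicate 2 (0.16), without dellaq replicate 3 (0.21), without lec1-4 replicate 2 (0.25) and without lec1-4 replicate 3 (0.19). GASA10, at 0.03 (SE 0.09, adjusted p = 0.805), and GASA9, at 0.62 (SE 0.34, adjusted p = 0.113), were not called. GASA9 was called when replicate 1 of dellaq was left out (0.87, adjusted p = 0.041), and likewise replicate 1 of lec1-4 (0.92, adjusted p = 0.0278). The difference between the change of dellaq against Col-0-1 and that of lec1-4 against Col-0-2 was higher for 5 members and lower for 2, where it was higher for 22.1% of all genes and lower for 52.8%. The labels do not give that pairing, and the difference also holds the one between the wild-type sets.

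Of the other 5 GASA genes, GASA12 and GASA13 passed the filter. GASA13 was at 48.0, 55.2 and 48.6 FPKM in dellaq and 0.878, 1.26 and 0.933 FPKM in lec1-4, against 11.0, 8.17 and 11.7 FPKM in Col-0-1 and 1.32, 2.75 and 3.65 FPKM in Col-0-2. It was higher in dellaq against both sets (log2 changes of 2.205 and 3.91, SE 0.21 each, adjusted p = 1.67e-06 and 1.84e-08) and lower in lec1-4 against Col-0-1 (-2.47, SE 0.21, adjusted p = 4.5e-06) and Col-0-2 (-0.77, SE 0.21, adjusted p = 0.00607). In dellaq its mean of 50.6 FPKM was above that of GASA7 there, 44.8 FPKM. GASA12 was at 1.66, 1.176 and 2.04 FPKM in dellaq and 0.863, 0.138 and 0.917 FPKM in lec1-4, against 1.70, 3.10 and 1.70 FPKM in Col-0-1 and 21.9, 6.05 and 5.63 FPKM in Col-0-2. GASA12 was called lower in both mutants against Col-0-2 (log2 changes of -1.98 in dellaq and -2.68 in lec1-4, adjusted p = 0.000894 and 8.43e-05) and in neither against Col-0-1 (adjusted p = 0.583 in dellaq and 0.0987 in lec1-4).

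Genes of the gibberellin pathway were counted beside the members. Of 12 perception and signalling genes, 0 were higher and 8 lower in dellaq against Col-0-1, and 0 were higher and 7 lower against Col-0-2, with 7 lower against both. For all genes tested the shares lower were 50.9%, 41.6% and 28.4%. The list of 12 holds the DELLA genes themselves. Among the 7 were the DELLA genes RGL1, RGL2 and RGA, whose calls in a DELLA mutant cannot be told apart from the genotype. No count was made without the DELLA genes. The receptor gene GID1A was also among the 7. GID1A fell to 11.9 ± 1.15 FPKM in dellaq, against 22.5 ± 1.40 FPKM in Col-0-1 and 22.5 ± 1.63 FPKM in Col-0-2. In lec1-4, 2 were higher and 0 lower against Col-0-1, and 8 higher and 0 lower against Col-0-2, where 15.8% and 42.7% of all genes were higher. The pair higher against both was GID1B, at 6.98 ± 1.47 FPKM in lec1-4, against 2.69 ± 0.357 FPKM in Col-0-1 and 2.60 ± 0.236 FPKM in Col-0-2, and SLY1, at 32.5 ± 0.702 FPKM, against 26.2 ± 2.11 and 27.6 ± 1.93. Of all genes tested, 8.19% were higher in lec1-4 against both sets.

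Of 14 synthesis genes 11 were tested. In dellaq 1 was higher and 9 lower against Col-0-1, and 4 higher and 4 lower against Col-0-2, beside 19.4% and 50.9%, and 21.9% and 41.6%, of all genes. KAO2, a kaurenoic acid oxidase gene, was at 10.5 ± 0.940 FPKM in dellaq, against 31.5 ± 2.23 FPKM in Col-0-1 and 30.05 ± 2.81 FPKM in Col-0-2. GA20ox2, a gibberellin 20-oxidase, was at 8.03 ± 0.449 FPKM in dellaq, against 14.1 ± 0.459 and 25.1 ± 1.37. GA3ox3, a 3-oxidase that makes active gibberellin, was at 1.91 ± 0.363 FPKM in dellaq and 2.83 ± 0.835 FPKM in lec1-4, against 5.70 ± 0.980 FPKM in Col-0-1 and 7.001 ± 0.795 FPKM in Col-0-2, and was lower in both mutants against both sets. Against both sets 4 synthesis genes were lower in dellaq and 1 was higher, beside 28.4% and 9.78% of all genes. In lec1-4, 0 were higher and 6 lower against Col-0-1, beside 15.8% and 10.7% of all genes. Against Col-0-2, 5 were higher and 4 lower in lec1-4, beside 42.7% and 23.3%. KAO1 and KO, a kaurene oxidase gene, were lower in lec1-4 against both, beside GA3ox3, where 4.01% of all genes were lower. Of 7 inactivation genes 3 were tested: GA2ox6 was lower in dellaq against both sets (0.520 ± 0.173 FPKM, against 1.76 ± 0.0907 and 3.35 ± 0.720) and GA2ox2 was lower in lec1-4 against both (3.49 ± 0.462 FPKM, against 5.49 ± 0.464 and 5.84 ± 0.437).

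The genes most like each member across the libraries were found among 15194 genes by Pearson correlation of log2(FPKM + 1) over the 12 libraries, which share 4 group means. GASA10 was most like PSAT (AT4G35630), at r = 0.991. GASA1 was most like AT5G03380, at r = 0.986, and GASA7 most like AT1G23205, at r = 0.986. GASA6 was most like AT4G25150 (r = 0.981), GASA14 most like AT4G31350 (r = 0.977) and GASA4 most like AT5G01870 (r = 0.960). The second in each case was AT5G24650 for GASA10 (r = 0.980), AT3G15356 for GASA1 (r = 0.980), CLT3 for GASA7 (r = 0.982), AT4G07507 for GASA6 (r = 0.979), MYB32 for GASA14 (r = 0.969) and NAI2 for GASA4 (r = 0.952). Among the 6 members with a mean of at least 5 FPKM, the pair GASA1 and GASA10 had r = 0.905, GASA7 and GASA14 had r = 0.887, and GASA6 and GASA10 had r = -0.759.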

How the data were processed

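Per the labels' protocols, 3 µg RNA per sample went into a poly-T-selected library kit that does not mark strand. The values used are FPKM per gene and library, as deposited by the authors. DESeq 1.18.0, HTSeq 0.6.1, TopHat2 2.0.12 and Bowtie2 2.2.3 appear in the submitters' processing notes. For build, annotation and counting mode, the answer is not given in the sources used here.

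The 20222 genes that reached 1 FPKM in 3 or more libraries (13380 left out) were fitted with limma 3.58.1 (R 4.3.3, trend, two-sided) on log2(FPKM + 1): 12 libraries, 1 mean per group, 8 residual degrees of freedom, Benjamini-Hochberg over all tested genes. The fit was tested on simulated data. Fragment numbers are whole multiples of a gene's own FPKM step (tolerance 0.06), found from depth and RefSeq TAIR10.1 exon lengths. The step was 1.0, 1.056 and 1.448 times that of the exon length for GASA2, GASA3 and GASA5. The RefSeq annotation and sequence also gave lengths and promoters. Deviations of same-numbered replicates from their group means correlated at -0.10 to 0.19 (2 of 18 pairs over 0.1). With so few libraries per group, that does not settle whether the numbers pair samples. No pair of libraries shared a non-zero value.

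Members and lists were chosen with earlier results of these data known. Named genes are LEC1 and the DELLA genes, for the genotypes, the members, and the other GASA genes past the filter. Up to 3 genes per gibberellin list and mutant, called in the same direction against both sets, were also named. So were the 2 genes most like each member with a mean of at least 5 FPKM, and some tissue markers. Alternatives covered filters, a pseudocount of 0.1, scalings, only the compared libraries, a replicate block and each library left out.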

Additional observations from a re-analysis of the deposited data

Results flagged for a closer look

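The change of dellaq against Col-0-1 was compared with that of lec1-4 against Col-0-2 by a contrast in the limma fit across all genes. The labels do not give this pairing of mutant and wild-type set, and the opposite pairing was not tested. The changes differed for 7 of the 8 tested members, 5 higher and 2 lower, beside 22.1% of all genes higher and 52.8% lower. With so few members, that count does not set the family apart from all genes tested. GASA3, counted among the 7, was at 1.82 in a test it entered only through dellaq, so its p-value is not given. The difference was 2.1 for GASA1 (adjusted p = 3.92e-08), 1.17 for GASA9 (adjusted p = 0.0399), 0.94 for GASA10 (adjusted p = 2.21e-05) and 0.48 for GASA7 (adjusted p = 0.0243). It was -2.1 for GASA6 (adjusted p = 3.49e-07) and -0.66 for GASA4 (adjusted p = 0.00257). The contrast also holds the difference between the wild-type sets. Against 1 and the same set, the difference between the mutants is dellaq against lec1-4. That was 0.25 for GASA1, 1.94 for GASA3, -0.85 for GASA6 and -1.002 for GASA4. For GASA7 it was -0.96, opposite in sign to the contrast. For GASA10 (0.03) and GASA9 (0.62) it was not called. In the contrast, GASA9 was no longer called in 4 of the 7 alternatives that keep all libraries and give it a value (adjusted p = 0.0561 with the replicate block). Its call in the contrast was also lost when any 1 of 9 libraries was left out, all but dellaq replicate 1, lec1-4 replicate 1 and Col-0-2 replicate 1 (0.86 to 1.22). GASA7 was not called without lec1-4 replicate 1 (0.43), Col-0-1 replicate 3 (0.43) or Col-0-2 replicate 1 (0.41). It was also not called with equal FPKM sums (0.14, adjusted p = 0.459) or once the trend with length and GC was removed (0.02, adjusted p = 0.932), and GASA4 was not called with median-ratio scaling (-0.26, adjusted p = 0.186).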

How the results depend on the processing

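The total of members called in each comparison, both directions together, stayed within 1.5 times its value in every alternative run. Counts in 1 direction moved more. In dellaq against Col-0-1 higher calls went to 1 with the 5 FPKM filter and lower calls to 4 with equal FPKM sums. In dellaq against Col-0-2 higher calls went to 1 without dellaq replicate 2, in lec1-4 against Col-0-1 lower calls to 0 without lec1-4 replicate 3, and in dellaq against lec1-4 higher calls to 1 in 8 alternatives. The count of members called the same way against both sets in dellaq was 3, ranged from 2 to 4 with single libraries left out, and was 5 with equal FPKM sums, when GASA1 and GASA14 were also lower. In lec1-4 it was 2, and ranged from 1 to 2 with single libraries left out. With the 5 FPKM filter GASA3 was not tested. Without a filter GASA2 was also higher in dellaq against both sets. With the replicate block (the labels give only a number, and whether it pairs samples is not settled) the counts against both sets stayed at 3 and 2.

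Scaling moved the split of all calls. In dellaq against Col-0-1, 27.5% of calls were higher, 51.6% with median-ratio scaling, 39.8% with upper-quartile scaling and 17.1% with equal FPKM sums, and the median of all genes was -0.22, -0.0016, -0.10 and -0.39. In lec1-4 against Col-0-2 the share was 64.7%, and 48.1%, 55.5% and 76.2% in the same settings.

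Signs turned for values that were not called. GASA1 in dellaq against Col-0-1 was 0.13 with median-ratio and 0.0171 with upper-quartile scaling. GASA10 in dellaq was -0.0283 against Col-0-1 with equal FPKM sums, and against lec1-4 -0.17 with equal sums and -0.0577 once the trend with length and GC was removed. GASA3 in lec1-4 against Col-0-2 was 0.30 with that trend removed. The difference between the mutants' changes for GASA14 was 0.31, 0.15 and 0.42 with median-ratio scaling, upper-quartile scaling and the trend removed. With single libraries left out, that GASA14 value ranged from -0.32 to 0.22, GASA10 in dellaq against lec1-4 from -0.0697 to 0.0836, GASA3 in lec1-4 against Col-0-2 from -0.17 to 0.0018, GASA6 in lec1-4 against Col-0-1 from -0.0766 to 0.0523 and GASA9 in dellaq against Col-0-1 from -0.079 to 0.48. The cause of these shifts was not tested.

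The labels do not tie a wild-type set to a mutant, so a change called against 1 set cannot be told apart from the difference between the sets. Counts were not used, and depth was inferred. At under 100 fragments per library, values of GASA2, GASA3, GASA5 and GASA9 carry counting error that the FPKM do not show.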
